A study of Mus musculus with 6 samples.

Results

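The collagen genes are the protein-coding genes whose symbol is Col, a type number, the letter a and a chain number (such as Col4a1), and 44 of the 40166 genes in the count table had such a symbol. They were compared between 3 tumors from vehicle-treated and 3 tumors from rigosertib (RGS)-treated C57BL/6 mice by bulk RNA sequencing. All 6 tumors grew under the skin of adult mice from the same injected cells, the single mouse melanoma line YUMM3.3, which carries mutant Braf. The labels put the start of treatment at a mean tumor volume of about 100 mm3, and the study's methods also allow a set day after injection. Both groups were gavaged on 5 days a week with 100 uL, either of water (vehicle) or of RGS, a compound that interferes with RAS signaling, at 300 mg/kg, and tumors were collected after 17 days. The question was which genes RGS changes in these tumors. The labels call the 3 samples of a group replicates and do not say that each came from a different mouse, so p-values measure the spread between these samples.

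Collagens are trimers of chains that wind into a triple helix, and nearly all are secreted into the extracellular matrix. Fibrillar collagens (types I, II, III, V, XI, XXIV and XXVII) pack into the fibers that give tissue its strength. Basement membrane collagens (here type IV, which forms sheets, with types XV and XVIII, which carry heparan or chondroitin sulfate chains) underlie vessels, epithelia, nerve and muscle. The remaining types sit on fibril surfaces, anchor basement membranes, form beaded filaments or span the cell membrane. In solid tumors collagen is usually made mainly by fibroblasts and vessel-associated cells, and tumor cells can make it too.

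The 6 libraries held 13837932 to 32555494 counts, and the 3 vehicle libraries were the 3 deepest, so in these files sequencing depth cannot be told apart from treatment. With all libraries thinned to the smallest, the same numbers of collagen genes were called higher (6) and lower (8). The labelled tissue was checked against marker genes. Of 10 melanocyte lineage markers, 5 (Dct, Tyr, Mlana, Slc45a2 and Oca2) had no count in any tumor, and 3 were tested with none called. Of 12 leukocyte markers Ptprc, Adgre1, Cd3e and Cd3g had none. Coro1a, Csf1r, Itgam and Cd79a had at most 20 counts in a tumor and were not tested. Of the 4 tested, 3 were higher with RGS (16.3% of all genes tested were), and the list summed to 246 to 314 CPM in vehicle and 1018 to 1103 in RGS. The part of leukocytes in the collagen values was not tested. Most of that sum was Laptm5 (176 CPM in vehicle and 900.2 in RGS, means), with Cd53 at 31.1 and 82.3 and Flt3 at 0.228 and 7.90. Cd68, tested but not called, was at 62.5 CPM in vehicle and 74.0 in RGS. The fibroblast markers Lum and Tcf21, the mural cell markers Kcnj8 and Abcc9 and the endothelial markers Emcn, Erg and Robo4 were also at 0 in all 6 libraries. With defining markers of melanocytes, leukocytes, fibroblasts and vessels absent, it is uncertain that these libraries hold the mix of cell types of a whole tumor, so the collagen levels and marker sums below are those of the libraries labelled as tumors. In bulk tumor RNA, fewer cells of a type and less RNA per cell cannot be told apart.

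Of the 44 collagen genes, 6 had no count in any tumor (Col4a6, Col6a5, Col9a1, Col13a1, Col19a1 and Col26a1). Another 9 had too few counts to test (Col4a3, Col6a6, Col8a2, Col9a2, Col10a1, Col14a1, Col23a1, Col24a1 and Col28a1), and 29 were tested. With RGS, 6 collagen genes rose and 8 fell at an adjusted p under 0.05 (edgeR's quasi-likelihood test, Benjamini-Hochberg adjustment over all 15355 genes tested). Over all genes tested 16.3% were called higher and 16.5% lower. Of the collagen genes that rose, Col17a1 and Col22a1 passed the filter only through their RGS counts. With at least 1 CPM in 3 tumors required, 4 collagen genes rose and 8 fell. The median log2 fold change of the 29 tested collagen genes was 0.02, and that of all genes was -0.05. The 3 RGS values lay entirely below the 3 vehicle values for 10 collagen genes and entirely above them for 5, while 45.8% of all genes tested did not overlap in either direction. The changes ran both ways within the family, as the plot of fold changes by class shows.

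**Figure D1:**
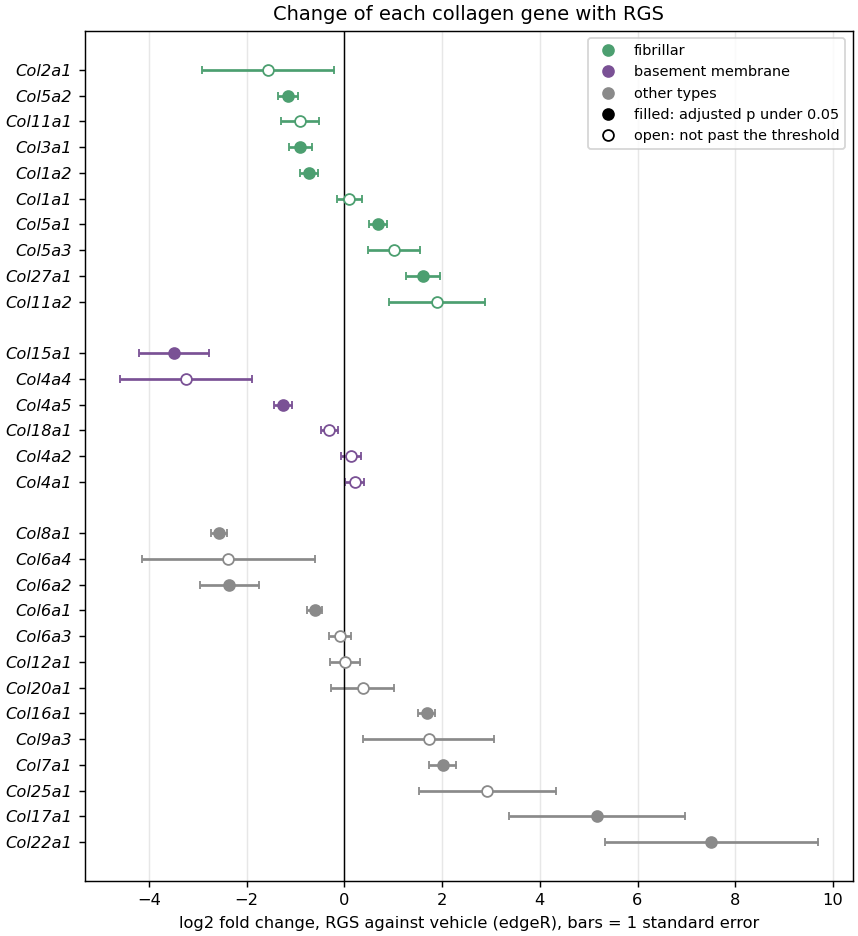
Log2 fold change (RGS against vehicle, edgeR, with 1 standard error) of the 29 tested collagen genes by class; filled points passed an adjusted p of 0.05. The fibrillar class and the other types hold filled points on both sides of 0, the basement membrane class holds 2, both below 0, and the points of Col17a1 and Col22a1 rest on few counts.

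Levels were compared between genes as CPM (read counts scaled to the library's size) per kilobase of exon, called length-scaled level here. A basement membrane chain, Col18a1, had the highest length-scaled level in every tumor: 177, 129 and 107 in the vehicle tumors and 119, 109.6 and 105 in the RGS tumors. Col4a2 and Col4a1 followed in both groups, with mean length-scaled levels of 51.1 ± 20.1 and 46.2 ± 15.5 (SD, n = 3) in vehicle and 55.8 ± 4.89 and 53.5 ± 4.11 in RGS. These neighbours differed from each other by less than their spread, and both were below Col18a1 in each tumor. After them the vehicle order was Col8a1 (35.6 ± 5.14), Col6a1 (19.7 ± 1.66), Col1a2 (19.6 ± 5.38), Col4a5 (14.2 ± 1.29) and Col5a1 (9.70 ± 2.62), and here Col6a1 and Col1a2 could not be separated. In the RGS tumors the order after Col4a1 was Col16a1 (23.2 ± 0.959), Col5a1 (15.6 ± 1.53), Col6a1 (12.9 ± 0.381), Col1a2 (11.9 ± 1.42), Col8a1 (6.02 ± 0.605) and Col4a5 (5.91 ± 1.202), where Col6a1 and Col1a2 again could not be separated (Col1a2 was the higher in RGS replicate 12). By mean, Col8a1 was in the fourth place in vehicle and the eighth in RGS, where it and Col4a5 could not be separated (Col4a5 was the higher in 2 of the 3 RGS tumors). Col16a1 was in the ninth place in vehicle and the fourth in RGS. Col1a1, one of the most abundant collagen transcripts of connective tissue, was in the 13th place in vehicle and the 12th in RGS. The exon length counts every exon of every isoform, so a gene with long alternative exons, such as Col1a2 with 12426 bases, gets a lower length-scaled level than its main transcript alone would give.

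**Figure D2:**
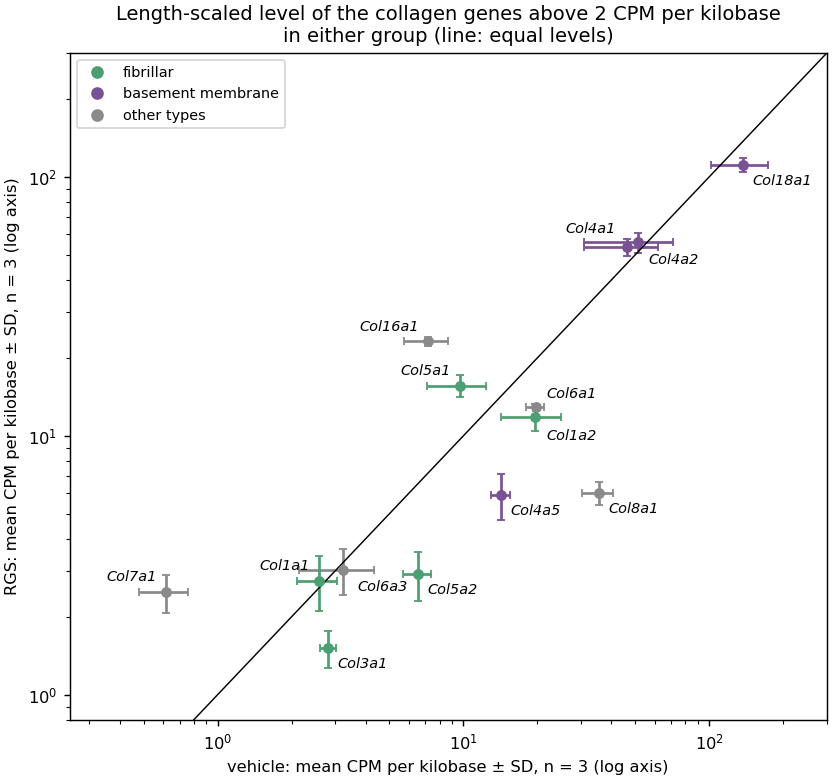
Mean length-scaled level (CPM per kilobase ± SD, n = 3, log axes) of the collagen genes above 2 in either group, vehicle on the x axis and RGS on the y axis, with the line of equal levels. Col18a1, Col4a1 and Col4a2 lie at the top near the line, Col8a1 and Col4a5 lie below it and Col16a1 and Col7a1 above it.

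Basement membrane chains made up 71.3%, 68.0% and 66.5% of the summed length-scaled level of all collagens in the vehicle tumors and 73.1%, 71.5% and 71.5% in the RGS tumors. Fibrillar chains gave 11.5% to 12.1% in vehicle and 11.4% to 12.3% in RGS, and these ranges overlapped. The other types gave 17.2% to 21.4% in vehicle and 15.4% to 16.5% in RGS, and these did not. As a share of all counts, collagen genes took 0.372%, 0.267% and 0.217% in the vehicle tumors and 0.238%, 0.216% and 0.206% in the RGS tumors. The vehicle tumors spread more widely than the RGS tumors (0.285% ± 0.0791 against 0.220% ± 0.0164, SD, n = 3) and the groups overlapped. Vehicle replicate 7, the deepest library, was the highest vehicle tumor for Col18a1, Col4a1, Col4a2, Col8a1 and Col1a2, the 5 collagen genes with the most CPM in vehicle tumors.

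Sequences are shown for 5 genes: Col4a1 and Col4a2, whose starts lie side by side and whose levels went together, and Col8a1, Col16a1 and Col7a1, the tested collagen genes with the lowest adjusted p among those that fell (Col8a1) and among those that rose (Col16a1, then Col7a1). Each is the reference window from 250 bases before to 50 after the RefSeq start site (GRCm38.p6), 5′ to 3′ on the gene's own strand. The windows are chr8:11312777-11313076 for Col4a1 (minus strand), chr8:11312555-11312854 for Col4a2 (plus), chr16:57754688-57754987 for Col8a1 (minus), chr4:130047590-130047889 for Col16a1 (plus) and chr9:108953336-108953635 for Col7a1 (plus). Capitals mark matches on either strand to the TATA box letters (TATAAA), the CCAAT box, the GC box (GGGCGG) or the AP-1 motif (TGANTCA).
Col4a1: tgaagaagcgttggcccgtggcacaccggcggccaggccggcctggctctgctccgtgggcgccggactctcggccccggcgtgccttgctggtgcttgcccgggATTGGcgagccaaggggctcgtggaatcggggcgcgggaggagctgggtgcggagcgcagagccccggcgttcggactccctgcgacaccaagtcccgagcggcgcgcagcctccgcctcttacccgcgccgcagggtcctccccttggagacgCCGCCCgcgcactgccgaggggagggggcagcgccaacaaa
Col4a2: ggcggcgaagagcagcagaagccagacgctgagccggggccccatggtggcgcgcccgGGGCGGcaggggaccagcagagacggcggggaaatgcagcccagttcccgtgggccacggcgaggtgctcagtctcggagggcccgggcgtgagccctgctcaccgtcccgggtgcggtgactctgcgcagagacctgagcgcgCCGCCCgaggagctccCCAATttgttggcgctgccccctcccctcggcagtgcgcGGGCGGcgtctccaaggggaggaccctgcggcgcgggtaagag
Col8a1: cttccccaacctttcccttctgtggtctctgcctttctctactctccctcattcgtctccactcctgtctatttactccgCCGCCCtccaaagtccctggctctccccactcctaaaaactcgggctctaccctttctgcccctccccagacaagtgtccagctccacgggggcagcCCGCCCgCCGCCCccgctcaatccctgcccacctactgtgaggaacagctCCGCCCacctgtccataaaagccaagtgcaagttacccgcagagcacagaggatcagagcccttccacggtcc
Col16a1: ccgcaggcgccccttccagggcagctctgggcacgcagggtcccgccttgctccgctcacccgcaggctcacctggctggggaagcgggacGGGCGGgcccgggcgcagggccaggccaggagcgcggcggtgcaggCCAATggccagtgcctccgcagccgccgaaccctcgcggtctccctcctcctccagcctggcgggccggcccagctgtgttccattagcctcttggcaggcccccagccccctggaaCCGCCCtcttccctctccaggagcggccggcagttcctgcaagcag
Col7a1: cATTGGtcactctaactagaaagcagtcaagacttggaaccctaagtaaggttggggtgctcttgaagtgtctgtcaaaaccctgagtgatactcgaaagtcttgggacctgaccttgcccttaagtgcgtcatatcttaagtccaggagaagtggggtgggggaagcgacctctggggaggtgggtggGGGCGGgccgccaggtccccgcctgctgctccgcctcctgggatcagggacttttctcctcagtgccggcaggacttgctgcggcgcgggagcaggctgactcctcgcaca

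The GC box letters, read by SP1-family factors, were in all 5 of these windows. The Col4a1 and Col4a2 windows overlap, and the only GC box of the Col4a1 window is the same site as 1 of the 3 in the Col4a2 window. The Col8a1 window held 4 GC boxes and no CCAAT box, and the other 4 windows each held 1 CCAAT box. None of the 5 windows held the TATA box or AP-1 letters, which says only that those letters are not in these windows. RefSeq promoter windows were matched for 35 of the 44 collagen genes (38 windows). The GC box was in 60.5% of the 38 collagen windows and in 35.7% of all 32851 windows, the CCAAT box in 34.2% and 37.4%, the TATA box in 13.2% and 13.6%, and the AP-1 motif in 2.6% and 7.8%. The median GC content of all windows was 52.7%, and most collagen windows were above it, within a range from 37.7% (Col3a1) to 75.0% (Col5a1). These shares describe the windows, take no account of GC content or of windows that overlap, and were not tested.

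Among the fibrillar collagens, Col1a2, Col3a1 and Col5a2 fell with RGS and Col5a1 and Col27a1 rose, of 11 genes in the class and 10 tested. The shares over all genes tested were 16.5% lower and 16.3% higher, so these counts are not read as a result about the class. The median log2 fold change of the 10 was -0.32. Partner chains of type V collagen went different ways, since Col5a2 fell while Col5a1 rose. Col24a1 had 0 to 18 counts per tumor and was not tested.

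Col1a2 (chr6:4504814-4541544) and Col1a1 (chr11:94936224-94953042) encode the chains of type I collagen, the main collagen of skin, bone and tendon. Col1a2 stood at 318, 225 and 188 CPM in the vehicle tumors and at 134.7, 139.7 and 167 in the RGS tumors. The groups did not overlap, and vehicle replicate 7 was far above the others. The log2 fold change was -0.73 (SE 0.18, adjusted p = 0.00503). Col1a1 stood at 20.6, 14.7 and 15.6 CPM in vehicle and 17.1, 14.4 and 22.9 in RGS. These groups overlapped, with the lowest and the highest of the 6 values both in RGS tumors (log2 fold change 0.10, SE 0.26, adjusted p = 0.811).

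Col3a1, whose homotrimer often shares fibrils with type I collagen, and Col5a2 lie tail to tail on chromosome 1, with 24615 bases between them, and both fell. Col3a1 (chr1:45311538-45349706) was at 28.9, 25.4 and 28.8 CPM in vehicle and 12.4, 17.2 and 15.0 in RGS, with no overlap and a log2 fold change of -0.90 (SE 0.23, adjusted p = 0.00504). Col5a2 (chr1:45374321-45503282), a chain of the type V collagen that helps set fibril diameter, was at 72.2, 59.6 and 56.3 CPM in vehicle and 34.8, 25.6 and 23.7 in RGS. The lowest vehicle tumor was well above the highest RGS tumor, and the log2 fold change was -1.16 (SE 0.20, adjusted p = 1.87e-04).

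Col5a1 (chr2:27886425-28039514), the chain that pairs with Col5a2, rose. It was at 104.5, 82.7 and 59.99 CPM in vehicle and 137, 143 and 118 in RGS, without overlap, at a log2 fold change of 0.69 (SE 0.19, adjusted p = 0.00865). Its exons overlap on the opposite strand with 2810430I11Rik (99 bases) and Gm13372 (113 bases), which had at most 32 and 43 counts in a tumor, against 1396 to 3662 for Col5a1. Col27a1 (chr4:63214004-63334991), a fibrillar collagen of cartilage, rose from 5.93, 4.70 and 3.05 CPM in vehicle to 16.4, 13.5 and 11.7 in RGS (log2 fold change 1.60, SE 0.35, adjusted p = 0.00154). Each RGS tumor held more Col27a1 than the highest vehicle tumor.

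The other fibrillar genes tested did not pass. Col11a1, a cartilage fibril chain also seen in tumor stroma, was at 9.52 ± 3.79 CPM in vehicle and 5.07 ± 0.833 in RGS (log2 fold change -0.91, adjusted p = 0.0783), and vehicle replicate 9 overlapped with the RGS tumors. Without that tumor it was -1.17 (adjusted p = 0.0292). Col5a3, the third chain of type V, was at 2.71 ± 0.367 CPM in vehicle and 5.44 ± 3.60 in RGS, where replicate 10 had 202 counts and the other 2 tumors 38 and 64. Col2a1 and Col11a2, cartilage collagens, had 1 to 29 and 3 to 79 counts per tumor. Markers of cartilage and bone summed to 77.6 to 109 CPM in vehicle and 189 to 199.5 in RGS. Nearly all of that sum was Sox9 (54.6 ± 6.45 CPM in vehicle and 152 ± 9.01 in RGS) and Runx2 (37.3 ± 10.3 and 41.0 ± 3.04). These were the 2 tested among the 8 listed, with Sox9 higher (16.3% of all genes tested were) and Runx2 not called. Acan, the main cartilage proteoglycan, was at 0 in all tumors. The part of cartilage and bone cells in the fibrillar results was not tested.

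**Figure D3:**
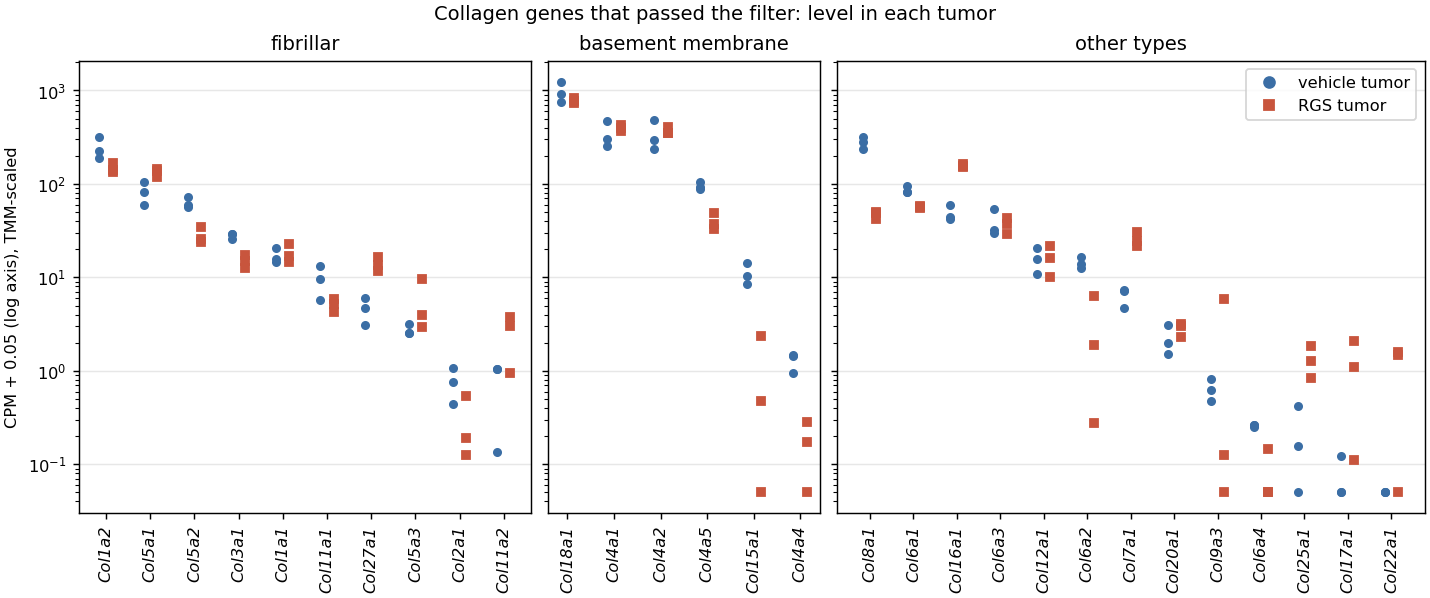
CPM + 0.05 (log axis) of each tested collagen gene in the 3 vehicle tumors (circles) and 3 RGS tumors (squares), ordered within each class by the vehicle mean. The squares of Col8a1, Col5a2 and Col4a5 lie below the circles, those of Col16a1, Col7a1 and Col27a1 lie above them, and Col4a1, Col4a2 and Col1a1 overlap.

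Of the 8 basement membrane collagen genes 6 were tested, of which Col4a5 and Col15a1 fell, none rose and 4 did not pass. Over all genes tested 16.5% were lower and 16.3% higher, so with 6 genes these counts are not read as a result about the class. The median log2 fold change of the 6 was -0.79. The 3 chains with the highest levels were among those not called.

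Col18a1 (chr10:77052178-77166548), whose C-terminal fragment endostatin inhibits vessel growth, was at 1244, 907 and 749.6 CPM in vehicle and 835, 769.8 and 738 in RGS. The groups overlapped, since vehicle replicate 9 was below 2 of the RGS tumors, and the log2 fold change was -0.31 (SE 0.17, adjusted p = 0.187). Without vehicle replicate 9 it was -0.46 at an adjusted p of 0.0335, and without vehicle replicate 7 it was -0.085 at an adjusted p of 0.635. Col15a1 (chr4:47208161-47313167), the other collagen of the same subfamily and one of basement membrane zones, fell. It had 497, 287 and 195 counts in vehicle and 49, 0 and 7 in RGS, or 14.2, 10.2 and 8.38 CPM against 2.32, 0 and 0.428. The lowest vehicle tumor was thus above every RGS tumor, RGS replicate 10 was the highest of the RGS tumors, and the log2 fold change was -3.48 (SE 0.71, adjusted p = 9.56e-04). Without RGS replicate 10 it was -5.53.

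Col4a1 (chr8:11198423-11312826) and Col4a2 (chr8:11312805-11449287), which form the type IV trimer found in all basement membranes, are head to head with annotated starts 21 bases apart and share 22 exonic bases on opposite strands. Col4a1 was at 475, 306 and 254.5 CPM in vehicle and 432, 372 and 394.5 in RGS. Col4a2 was at 488, 294 and 234 CPM in vehicle and 407, 348.5 and 353 in RGS. For both genes vehicle replicate 7 was above all RGS tumors and the other vehicle tumors were below them, so the groups overlapped. The log2 fold changes were 0.21 (SE 0.19, adjusted p = 0.431) for Col4a1 and 0.13 (SE 0.21, adjusted p = 0.682) for Col4a2. Without vehicle replicate 7 both were called higher, at 0.51 (adjusted p = 0.00358) and 0.49 (adjusted p = 0.00665). Without vehicle replicate 9 the log2 fold changes were 0.036 (adjusted p = 0.915) for Col4a1 and -0.078 (adjusted p = 0.81) for Col4a2. The outcome thus depended on which vehicle tumor was left out.

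Col4a5 (chrX:141475385-141689234), a chain of the type IV trimers of kidney and other specialised basement membranes, fell, from 93.2, 104.9 and 87.96 CPM in vehicle to 33.1, 48.7 and 37.3 in RGS. Each RGS tumor was below each vehicle tumor by a wide gap, and the log2 fold change was -1.27 (SE 0.18, adjusted p = 3.31e-05). Its partners in those trimers were at low or no counts. Col4a4 had 49, 25 and 33 counts in vehicle and 5, 0 and 2 in RGS (log2 fold change -3.24, SE 1.35, adjusted p = 0.0736), without overlap but not past the threshold in edgeR. DESeq2 and limma voom both called it lower (the lower of their adjusted p values was 0.0293), which makes 3 basement membrane genes lower under either tool. Col4a3, head to head with Col4a4 at 72 bases, had 1 count in 1 RGS tumor, and Col4a6, head to head with Col4a5 at 1309 bases, had none.

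Endothelial markers, a cell type that lays down basement membrane, summed to 54.5 to 60.4 CPM in vehicle and 89.5 to 100.2 in RGS, mostly from Eng. Of 6 tested among the 12 listed, 3 were higher (Cdh5, Egfl7 and Eng), none was lower, and Emcn, Erg and Robo4 were at 0. Mural cell markers, from the cells that wrap vessels, summed to 195 to 275 CPM in vehicle and 451 to 514 in RGS, and of 7 tested among the 10 listed 2 rose and 5 fell. Rgs5 took most of the RGS sum (401 ± 29.5 CPM, against 1.30 ± 0.164 in vehicle), while Acta2 fell from 88.2 ± 6.67 to 18.2 ± 3.62 CPM and Pdgfrb from 14.5 ± 3.99 to 3.15 ± 1.06. Fibroblast markers summed to 1013 to 1153 CPM in vehicle and 1562 to 1791 in RGS, mostly from Gsn, with 2 of 8 tested among the 12 listed higher (Gsn and Dcn), Pdgfra lower and Lum and Tcf21 at 0. These counts stand beside 16.3% higher and 16.5% lower over all genes tested. The part of these cell types in the collagen changes was not tested.

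Of the 25 collagen genes of other types, 13 were tested, of which Col7a1, Col16a1, Col17a1 and Col22a1 rose and Col6a1, Col6a2 and Col8a1 fell, beside 16.3% higher and 16.5% lower over all genes tested. The median log2 fold change of the 13 was 0.37. By structure, 2 of the 5 tested FACIT genes (collagens that sit on the surface of fibrils) were higher, and 2 of the 4 tested beaded filament genes (type VI) were lower. With so few genes, these counts are not read against the shares of all genes, and they were not compared by a test.

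Col8a1 (chr16:57624258-57754737), a short-chain collagen that forms hexagonal networks in the subendothelium and the corneal Descemet's membrane, had the lowest adjusted p of the collagen genes. It was at 317, 284 and 237 CPM in the vehicle tumors and 50.4, 49.2 and 41.7 in the RGS tumors, so the mean fell 5.92-fold (279 ± 40.3 to 47.1 ± 4.74 CPM). The log2 fold change was -2.57 (SE 0.17, adjusted p = 2.49e-09), and the gap between the groups was several times the spread within either. Its partner chain Col8a2 had 4 counts in vehicle replicate 9 and none elsewhere, and Col10a1, the short-chain collagen of hypertrophic cartilage, had 14, 2 and 0 counts in vehicle and none in RGS. The floor of 3 counts corresponded to 0.0856 to 0.226 CPM in these libraries.

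Type VI collagen forms beaded filaments near cell surfaces from chains encoded by Col6a1, Col6a2 and a longer chain, usually Col6a3. Col6a1 (chr10:76708792-76726168) was at 94.6, 82.6 and 81.5 CPM in vehicle and 58.2, 56.1 and 54.9 in RGS, with no overlap and a log2 fold change of -0.61 (SE 0.16, adjusted p = 0.00677). Col6a2 (chr10:76595762-76623630), on the same strand of chromosome 10, was at 13.9, 16.6 and 12.4 CPM in vehicle and 1.85, 0.226 and 6.24 in RGS. The groups did not overlap, but the RGS tumors spread widely (102 counts in replicate 12, 3 in replicate 11). Its log2 fold change was -2.35 (SE 0.60, adjusted p = 0.00519), and DESeq2 gave an adjusted p of 0.0755. Without RGS replicate 12 it was -3.70. Col6a3 (chr1:90765923-90843971) was at 53.9, 30.1 and 32.4 CPM in vehicle and 43.5, 28.9 and 36.8 in RGS, which overlapped (log2 fold change -0.09, SE 0.23, adjusted p = 0.803). Of the alternative long chains, Col6a4 had 5 to 7 counts in vehicle and 0 to 2 in RGS, Col6a6 had 10 counts in 1 vehicle tumor, and Col6a5 had none.

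Col16a1 and Col7a1 were the clearest of the genes that rose. Col16a1 (chr4:130047840-130099283), a FACIT of dermis and cartilage, was at 59.7, 43.95 and 41.8 CPM in vehicle and 149.9, 163 and 156 in RGS. All RGS tumors were far above all vehicle tumors (3.22-fold between means, log2 fold change 1.69, SE 0.17, adjusted p = 6.83e-07). Col7a1 (chr9:108953586-108984875), which forms the anchoring fibrils that fasten epidermis to dermis, was at 7.19, 4.70 and 7.13 CPM in vehicle and 21.8, 24.7 and 30.2 in RGS. These groups were also far apart (4.03-fold between means, log2 fold change 2.01, SE 0.27, adjusted p = 1.76e-05). Keratinocytes are a main source of Col7a1 in skin, and their 9 markers summed to 0.770 to 1.72 CPM in vehicle and 1.41 to 2.65 in RGS, with Krt1, Trp63 and Dsg3 at 0. Only Krt10 had enough counts to test (adjusted p = 0.634), and the part of keratinocytes in the Col7a1 values was not tested.

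Col17a1 and Col22a1 were called higher from few counts. Col17a1 (chr19:47646344-47692094), the transmembrane collagen of hemidesmosomes, had 0, 2 and 0 counts in vehicle and 22, 27 and 1 in RGS, so RGS replicate 12 overlapped with the vehicle tumors. Col22a1 (chr15:71795795-72034227), a FACIT of tissue junctions such as that of muscle and tendon, had none in vehicle and 30, 0 and 25 in RGS, so RGS replicate 11 was equal to the vehicle tumors. Both genes passed the filter only through their RGS counts. Against a floor of 3 counts in each vehicle library, the RGS mean of Col22a1 was at least 7.62-fold higher, but that mean came from RGS replicates 10 and 12 alone. The adjusted p was 0.0344 for Col17a1 and 0.0141 for Col22a1. Leaving out vehicle replicate 8 or RGS replicate 10 or 12 ended the call of Col22a1 (adjusted p = 0.0621, 0.0743 and 0.0697), and leaving out any tumor but RGS replicate 12 ended that of Col17a1 (adjusted p from 0.0555 to 0.191). Skeletal muscle markers, of which Ckm, Myh1, Myh4, Pax7 and Myod1 were at 0, summed to 2.88 to 4.42 CPM in vehicle and 1.36 to 2.46 in RGS.

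The rest of the other types did not pass the edgeR test. Col12a1, a FACIT of dense connective tissue, was at 15.7 ± 4.82 CPM in vehicle and 15.96 ± 5.84 in RGS. Col25a1, a transmembrane collagen of neurons, had 13, 3 and 0 counts in vehicle and 26, 24 and 13 in RGS (edgeR adjusted p = 0.119), and both DESeq2 and limma voom called it higher (the lower of their adjusted p values was 0.04). Col9a3 had 27, 16 and 10 counts in vehicle and 122, 1 and 0 in RGS, so RGS replicate 10 alone carried its higher RGS mean. Col20a1 had 41 to 71 counts in all tumors and shares 79 exonic bases on the same strand with BX649560.1, which had 83 to 257, so its own level is uncertain. Col14a1, Col23a1, Col28a1 and Col9a2 had between 1 and 16 counts in any tumor where they were seen.

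The chain ratios put partner chains on 1 scale within each tumor, as the log2 ratio of length-scaled levels. The smallest p that an exact permutation test of 3 against 3 tumors can give is 0.1, so no ratio can pass 0.05, and 6 pairs were compared. The Col5a1 to Col5a2 ratio was 1.64, 1.57 and 1.21 in the vehicle tumors and 4.45, 6.30 and 5.63 in the RGS tumors. That is a mean log2 ratio of 0.54 ± 0.24 in vehicle and 2.43 ± 0.26 in RGS (SD, n = 3, exact two-sided permutation p = 0.1, 0.15 adjusted over the 6 pairs). By length-scaled level Col5a1 was the higher chain in all 6 tumors, an order that depends on the exon lengths used. The gap widened in RGS without overlap.

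The Col1a1 to Col1a2 log2 ratio was -2.91 ± 0.20 in vehicle and -2.12 ± 0.21 in RGS, and the Col6a1 to Col6a2 log2 ratio was 3.53 ± 0.25 in vehicle and 6.28 ± 2.43 in RGS. Both were higher in every RGS tumor, and the latter spread widely because RGS replicate 11 had 3 Col6a2 counts. The Col3a1 to Col1a1 log2 ratio was lower in every RGS tumor, at 0.14 ± 0.21 in vehicle and -0.85 ± 0.46 in RGS. Each of these 3 pairs reached the smallest exact permutation p, 0.1. The Col6a3 to Col6a1 log2 ratio was -2.65 ± 0.34 in vehicle and -2.10 ± 0.28 in RGS, with overlap. The Col4a1 to Col4a2 ratio stayed between 0.864 and 0.990 in all 6 tumors, so the pair with adjoining starts kept nearly equal levels also in vehicle replicate 7, where both were highest.

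**Figure D4:**
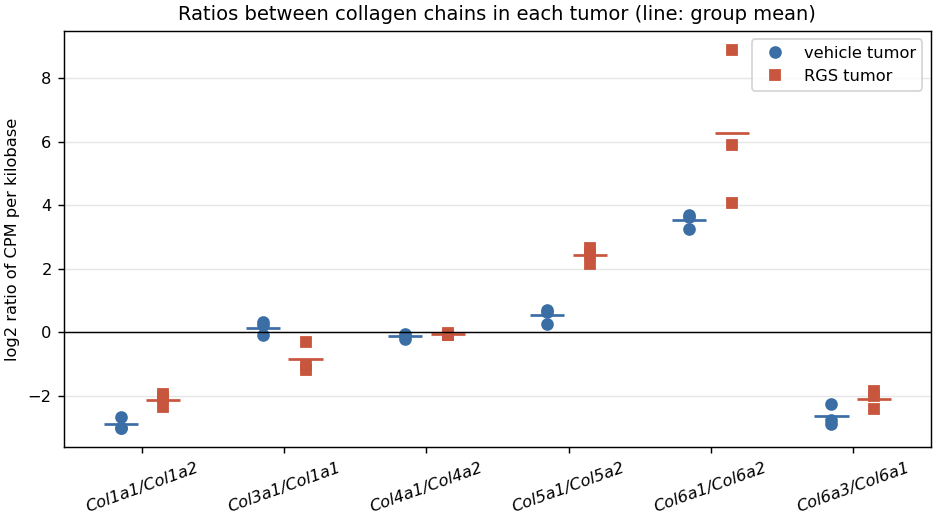
Log2 ratio of length-scaled levels for 6 chain pairs in each vehicle tumor (circles) and RGS tumor (squares), with the group means as lines. Col4a1/Col4a2 sits near 0 in all 6 tumors, Col5a1/Col5a2 moves from a mean of 0.54 to 2.43, and the RGS values of Col6a1/Col6a2 are widely spread.

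Genes linked to collagen were taken from 4 lists, whose counts stand beside 16.3% called higher and 16.5% called lower over all genes tested. Of 21 tested genes on the list of chain modification and folding in the endoplasmic reticulum, 11 were higher and 1 was lower with RGS. Their median log2 fold change was 0.52, beside -0.05 for all genes. The list also holds genes of other roles: Mia3 and Sec23a, both called higher, with Creb3l1 and Tmem38b, not called. The 11 is thus not a count of modifying and folding genes alone. P4ha2, a catalytic subunit of the prolyl 4-hydroxylase that stabilises the triple helix, rose from 83.9 ± 2.30 to 242 ± 8.29 CPM (log2 fold change 1.53, adjusted p = 3.56e-07). Fkbp14, a peptidyl-prolyl isomerase that aids collagen folding, and P3h1, which hydroxylates proline at another position, rose by 1.41 and 1.17 on the log2 scale. Colgalt1, which adds galactose to hydroxylysine, fell by 1.09 on the log2 scale (130.7 ± 7.92 to 61.5 ± 11.2 CPM) and was the 1 gene of the list that fell.

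Of 14 tested genes of procollagen processing and fibril assembly, 5 were higher and 3 lower (median log2 fold change 0.14), with the lower share near that of all genes (16.5%). Bmp1, the protease that removes the C-propeptide of fibrillar procollagens, rose from 107 ± 4.44 to 301 ± 37.7 CPM (log2 fold change 1.495, adjusted p = 7.73e-07). The proteoglycan Dcn, which coats fibrils, and Fn1, the fibronectin on which collagen assembles, rose by 3.24 and 1.08 on the log2 scale, with Dcn at 1.14 ± 0.495 CPM in vehicle. Loxl4, a lysyl oxidase that crosslinks fibers, and Pcolce2, an enhancer of Bmp1, fell by 1.33 and 0.59 on the log2 scale, while the related enhancer Pcolce rose from 141 ± 8.17 to 237 ± 38.2 CPM (adjusted p = 0.00128). Adamts14, an N-propeptidase, fell from 78.3 ± 20.1 to 39.1 ± 9.24 CPM (adjusted p = 0.00148).

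Of 8 tested collagen receptors, 2 were higher and 2 lower (median 0.23), beside 16.3% and 16.5% of all genes, so counts this small are not read as a result about the list. Ddr1, mainly epithelial, rose by 0.63 on the log2 scale (adjusted p = 0.00932), and Ddr2, mainly mesenchymal and a receptor for fibrillar collagen, fell by 1.07 (364 ± 51.0 to 174 ± 17.4 CPM, adjusted p = 4.39e-05). The collagen-binding integrin chains Itga2 and Itga10 changed by 1.67 and -1.44 on the log2 scale. Of 9 tested genes of collagen breakdown, 3 were higher and 1 lower (median 1.02), beside the same 16.3% and 16.5%. Mmp14, a membrane-bound collagenase, rose from 370 ± 79.6 to 749.9 ± 33.6 CPM (log2 fold change 1.02, adjusted p = 1.18e-04). Mmp1a, a secreted interstitial collagenase, had 0, 1 and 0 counts in vehicle and 25, 60 and 48 in RGS.

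**Figure D5:**
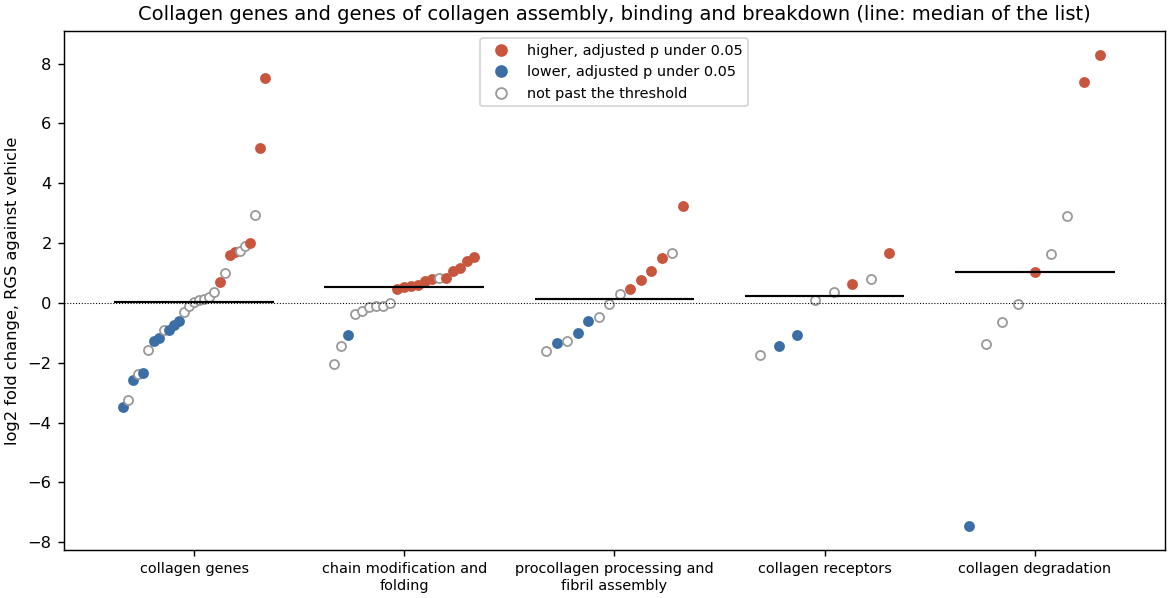
Log2 fold change (RGS against vehicle) of the tested collagen genes and of the 4 lists (chain modification and folding, procollagen processing and fibril assembly, receptors and breakdown), with the median of each as a line. The collagen genes spread on both sides of 0 around a median of 0.02, and the chain modification list has 11 genes called higher and 1 called lower.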

How the data were processed

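RNA of 3 vehicle and 3 RGS tumors was sequenced as paired-end reads of 150 bases. The deposited table holds the authors' raw counts of reads for each gene, with the gene's length. The submitters' processing notes name cutadapt 1.18, FastQC 0.11.7, STAR 2.7.1a, featureCounts 1.6.4 and the build mm10. The strand setting is not given in the sources used here, so reads of overlapping genes on opposite strands cannot be told apart. IDs of 42 of the 44 collagen genes matched GENCODE M21, with the same start and end. Genes with a median of at least 5 counts in 1 group were tested in edgeR 4.0.16 (R 4.3.3) by the quasi-likelihood test with TMM factors, and p-values were adjusted over 15355 genes at 0.05. The SE is the absolute log2 fold change over the root of the F statistic. CPM were TMM-scaled, and per-kilobase values used the deposited length. DESeq2 1.42.0, limma voom 3.58.1, other factors, filters, thinning, a gene length offset and leaving out each tumor were alternatives. Within each group, pairs of libraries differed by more than sampling noise (chi-square per degree of freedom 18.5 to 127). In data simulated for this comparison over 15355 genes, edgeR recovered 95% of 4-fold and 50% of 2-fold changes, with 7.64% false calls. The simulation gave every gene the same dispersion and changed far fewer genes than were called here. These rates check the code and are not the power or error rate of the real data. Promoters are from RefSeq.

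Collagen classes, the 4 lists and the marker lists were written by hand, and members and lists were chosen with earlier results of these data known. Genes named by rule were, in each class, the 3 with the highest level, the 5 largest changes in each direction among called genes, the chains of the ratios, and up to 3 called genes per list and direction above 1 CPM. Other collagen genes are named so that every member is accounted for, and Pcolce was named after its values were seen. Floors cover counting error only.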

Additional observations from a re-analysis of the deposited data

How the results depend on the processing

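No paired analysis was possible because vehicle and RGS tumors share no replicate number. With calls limited to log2 fold changes of 1 or more in size, there were 5 collagen genes lower, 1 fibrillar gene higher and 1 fibrillar gene lower. Other types called higher were 2 with at least 1 CPM in 3 tumors, 2 at an adjusted p under 0.01, and 2 to 3 when single tumors were left out, with 2 without vehicle replicate 8 or RGS replicate 10. Basement membrane genes called higher were 0 to 2 with tumors left out (2 without vehicle replicate 7). With mitochondrial genes left out of the total, the collagen share of counts was 0.292% in vehicle and 0.237% in RGS. Scaling by library size alone turned Col4a2 to -0.0218 and Col1a1 to -0.0541, moved the median of all genes to -0.19 and lowered the share of calls that were higher from 49.7% to 37.2%. Leaving out tumors gave -0.0777 to 0.49 for Col4a2, -0.12 to 0.26 for Col1a1 and -0.24 to 0.23 for Col6a3. Col22a1 was not called without vehicle replicate 8 (adjusted p = 0.0621), RGS replicate 10 (0.0743) or RGS replicate 12 (0.0697). Col17a1 was not called under limma voom (0.0609), with every gene that had a count tested (0.0514), or without vehicle replicate 7 (0.131), 8 (0.0555) or 9 (0.122) or RGS replicate 10 (0.0967) or 11 (0.191). The causes were not tested. Col8a1, Col5a2, Col4a5, Col15a1, Col7a1, Col16a1 and Col27a1 kept their direction and call under all 18 alternatives run. At these depths genes near the floor of 3 counts in both groups cannot show a difference.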
